A study of Arabidopsis thaliana with 9 samples.

Results

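The transcriptomes of germinating mARF10 seeds of Arabidopsis thaliana were compared with those of the wild-type accession Col-0 across all genes. The comparison took the 3 arrays titled mARF10 and the 3 arrays titled Col-0, which are 6 of the 9 arrays of the study, and every probe set that is not a control. mARF10 plants carried AUXIN RESPONSE FACTOR10 (ARF10) under 3 kb of its own upstream sequence, with 2.3 kb of coding sequence and a fusion to green fluorescent protein, and 4 mutations had been made where microRNA160 binds. ARF10 plants, the remaining 3 arrays, carried the same construct with that site intact. Col-0 plants carried no construct according to the labels, and the Col-0 and mARF10 groups thus differ both in the presence of a transgene and in the mutated site. The number of transformed lines behind a group was not stated. Seeds of all groups had imbibed on 3 ml of water, first in the cold and dark (4 °C, 3 days) and then in light (22 °C, 22 h), and each sample held 3 seed lots.

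ARF10 is one of the auxin response factors, proteins that bind auxin-responsive promoters and, in the class to which ARF10 belongs, mostly repress them. Its messenger RNA is cleaved under the guidance of microRNA160, and mutations in the target site protect the transcript from that cleavage. In seeds, auxin and abscisic acid act together to hold back germination, while a germinating seed uses up its storage proteins, oil and desiccation-protective proteins and builds photosynthetic capacity. No probe set was named for ARF10 in the annotation used here, so the level of the transgene's transcript was not analysed here.

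The values are log2 signals, on which a difference of 1 is a 2-fold change. Array medians lay between 7.06 and 7.11. Array-to-array correlations over the tested probe sets were 0.992 to 0.995 within mARF10 and 0.968 to 0.990 within Col-0, and 0.967 to 0.994 between the 2 genotypes. Col-0 replicates 1 and 3 correlated with the mARF10 arrays at 0.992 and 0.991 on average, above their averages of 0.979 and 0.986 with the rest of their own group. Col-0 replicate 2 stood apart: on the 1st principal component of the 6 arrays, which held 61.5% of the variance, it lay at 40.5, against -18.6 to -0.28 for the mARF10 arrays and -15.8 and 3.27 for Col-0 replicates 1 and 3. On this array the mean log2 signal of photosynthesis genes was 8.94, while Col-0 replicates 1 and 3 had 10.16 and 9.92. The 3' signal of the GAPDH controls exceeded the 5' signal by 0.14, 0.60 and 0.35 on the mARF10 arrays and by 0.45, 0.61 and 0.27 on the Col-0 arrays. For the actin controls the excess was 2.43, 2.86 and 2.65 on the mARF10 arrays and 2.40, 2.74 and 2.68 on the Col-0 arrays. Replicate 2 was thus highest in both groups, while on the ARF10 arrays replicate 3 was highest for both controls (0.37 and 2.61). For many values that changed sign or moved much without Col-0 replicate 2, the value without it is given as well, but not for all. The glutathione transferase gene GSTU20, for example, moved from 0.77 to 0.54 and the storage gene PAP85 from 0.83 to 1.09. A value given alone is thus not always stable to that array. The array was singled out from these same values, so a gene that passes without it is described and not tested. ICL, the isocitrate lyase that germinating seeds use to turn oil into sugar, was near the top of the scale on every array. It lay between 14.64 and 14.78 on the mARF10 arrays and between 14.64 and 14.68 on the Col-0 arrays.

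No single probe set passed an adjusted p of 0.05 between mARF10 and Col-0 (0 of 15922, 0%). An unadjusted p under 0.05 was found for 769 probe sets with higher and 928 with lower signal in mARF10 (4.83% and 5.83% of those tested), and 796 in both directions together is the number chance gives. Large differences were mostly upward in mARF10. A difference of at least 1 was seen for 38 probe sets higher and 1 lower in mARF10, and 30 and 1 of these had an unadjusted p under 0.05. Without Col-0 replicate 2, 22 and 1 probe sets had both a difference of at least 1 and an unadjusted p under 0.05. Of all probe sets, 4.24% were then higher and 4.4% lower at an unadjusted p under 0.05 (named genes 4.48% and 4.07%), and 11 passed after adjustment (0.0691%; 6 named genes, 0.0676%). Arrays of the 2 genotypes did not overlap, with all arrays used, in 5.26% of probe sets on the higher and 7.12% on the lower side. When arrays were weighted by how closely they followed their group, 55 probe sets were called higher and 27 lower (0.345% and 0.17%). The weights came from limma's gene-by-gene method, because its default method did not converge on these arrays. They were 0.91, 0.59 and 2.32 for the mARF10 arrays and 0.54, 0.23 and 1.90 for the Col-0 arrays. Over the 8870 named genes the median difference was -0.01, and 47.7% of them were higher in mARF10.

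**Figure D1:**
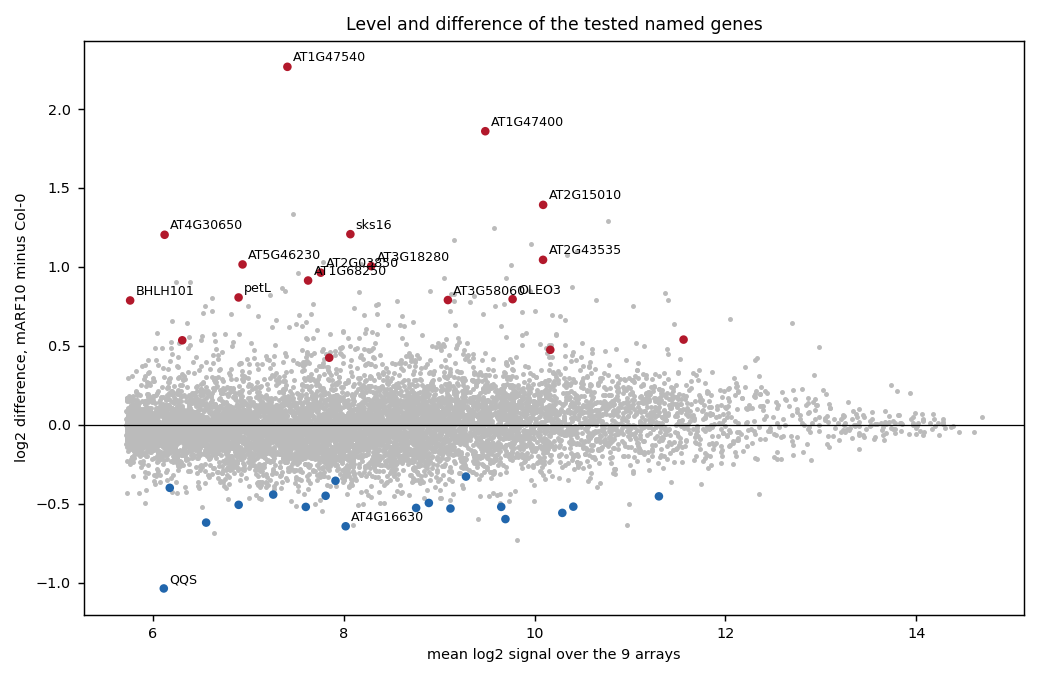
Each point is 1 of the 8870 tested named genes; the x axis is its mean log2 signal over the 9 arrays and the y axis its log2 difference, mARF10 minus Col-0. Coloured points are the genes with the smallest p or the largest difference among genes with non-overlapping arrays, red for higher and blue for lower in mARF10. The upper side reaches 2.27 (AT1G47540) and the lower side -1.04 (QQS).

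The named gene with the smallest p was AT1G47540, which encodes a small cysteine-rich protein of the trypsin inhibitor family. Its log2 signal was 9.65, 8.93 and 9.16 on the mARF10 arrays, against 6.57, 7.56 and 6.81 on the Col-0 arrays. All mARF10 arrays were above all Col-0 arrays, and the difference of 2.27 (SE 0.27) was 4.81-fold, with an adjusted p of 0.107. Without Col-0 replicate 2 the difference was 2.56 and passed (adjusted p = 0.0068), and with array weights the adjusted p was 0.0022. In ARF10 seeds the same gene lay at 6.30, 5.87 and 5.83, below every array of the other 2 genotypes.

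Among the other genes highest in mARF10, sks16 encodes a multicopper oxidase-like protein of the SKU5 family. It measured 8.73, 8.54 and 8.91 in mARF10 seeds and 7.79, 7.08 and 7.70 in Col-0 seeds, a difference of 1.21 (SE 0.18, adjusted p = 0.156) that passed without Col-0 replicate 2 (0.99, adjusted p = 0.0239). Its relative sks15 differed by 0.80 with arrays that just overlapped, at 6.85 for the lowest mARF10 array and 6.87 for the highest Col-0 array. SKU5 itself, the founding member of that family, differed by 0.07. AT4G30650, of a family of small low-temperature- and salt-responsive membrane proteins, was at 7.12, 6.23 and 7.43 in mARF10 seeds and 5.93, 5.57 and 5.65 in Col-0 seeds. Its Col-0 level was near the filter of 5.72, so the size of its difference, 1.20 (SE 0.26), is uncertain.

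HTB2, a histone H2B gene, was at 10.39, 10.62 and 10.59 in mARF10 seeds, against 10.13, 10.12 and 9.93 in Col-0 seeds. The groups did not overlap, and the difference was 0.48 (SE 0.09, adjusted p = 0.246). AT1G62510, of the family that holds lipid transfer proteins and 2S albumins, measured 12.17, 12.04 and 11.99 against 11.46, 11.43 and 11.69 in Col-0 seeds, a difference of 0.54. AT3G18280, of the same large family, differed by 1.01 and AT5G46230 by 1.02. AT1G68250 differed by 0.91, AT1G10530 by 0.54 and AT1G06510 by 0.43. None of these passed with equal weights and all arrays, and each of the 7 had non-overlapping arrays, as had 5.59% of named genes in this direction.

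**Figure D2:**
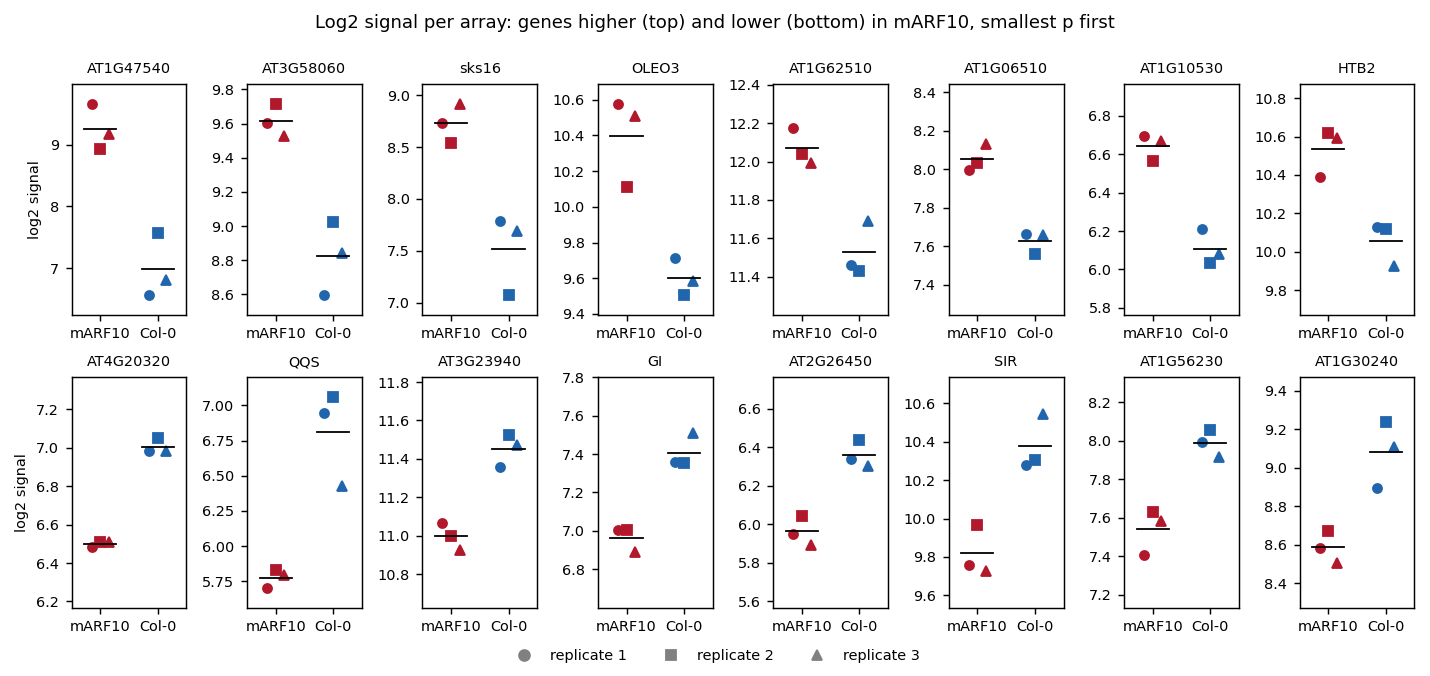
Log2 signal (y axes, 1 scale per gene) of the 8 higher genes (top) and 8 lower genes (bottom) with the smallest p and non-overlapping arrays, mARF10 in red and Col-0 in blue. Symbols give the replicate and black bars the mean of 3 arrays. In each panel the 2 groups are apart, by 2.27 between means for AT1G47540 and by -0.40 for AT2G26450.

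With all arrays, genes for small cysteine-rich defence proteins formed the group with the largest median among lists with at least 3 tested members. These are trypsin inhibitors, which block digestive proteases of insects, and defensins and thionins, which act on microbial membranes. Of 20 genes in the list, 15 were named on the array and 10 passed the filter on low signal. All 10 of these were higher in mARF10, with a median difference of 0.83, beside -0.01 over all named genes. An unadjusted p under 0.05 was found for 5 of the 10, all higher in mARF10, where 4.98% of named genes had one in that direction. Without Col-0 replicate 2 the median was 0.61, and 9 were higher. The rank was not stable, as the storage and oil body list then had a larger median (0.72). The multicopper oxidase family came close with all arrays (0.80 over 3 tested genes). With the 5 dim members of the trypsin inhibitor, defensin and thionin list included, its median was 0.13. A member can pass the filter through high signal in 1 genotype, so these counts describe the list and test nothing. Other defensin genes stood in a separate list of pathogen and jasmonate response genes. They were PDF1.2 (-0.02), PDF1.2b (0.34, and 0.68 without Col-0 replicate 2) and LCR67 (0.41, and 0.94 without it). Of 6 tested genes in that list, 5 were higher and 1 lower, and 0 had an unadjusted p under 0.05. Without Col-0 replicate 2, 2 had one, both higher, beside 4.48% of named genes.

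AT2G15010, of the thionin family, measured 11.72, 11.27 and 11.13 in mARF10 seeds and 9.36, 10.87 and 9.71 in Col-0 seeds. All mARF10 arrays were higher, and Col-0 replicate 2 lay just under the lowest of them. Its difference of 1.39 (SE 0.35, adjusted p = 0.332) became 1.84 without that array and then passed (adjusted p = 0.0239). As the array left out was the Col-0 array nearest to mARF10 for this gene, the difference had to rise. AT2G43530 and AT2G43535 are neighbours on the chromosome in the RefSeq gene table of assembly TAIR10.1 and encode further trypsin inhibitor-like proteins. AT2G43530 was at 8.18, 8.15 and 7.94 against 7.43, 7.27 and 6.97 in Col-0 seeds, a difference of 0.87 (SE 0.19). AT2G43535 was at 10.80, 10.84 and 11.01 against 10.61, 9.14 and 9.77 in Col-0 seeds, where replicate 1 lay close to the mARF10 arrays. Its difference was 1.05, and 0.69 without Col-0 replicate 2. Among the defensin genes, LCR68 differed by 0.79 (0.53 without Col-0 replicate 2), with 11.93, 11.95 and 12.15 in mARF10 seeds and 11.74, 10.69 and 11.23 in Col-0 seeds. PDF2.1 showed the widest spread in the list. It lay at 11.43, 11.49 and 10.95 in mARF10 seeds and 8.48, 11.73 and 10.22 in Col-0 seeds, so its difference of 1.15 (SE 0.64) came with overlapping arrays. It was 1.94 without Col-0 replicate 2, the highest array for this gene. LCR69 (0.13) and the Kunitz-type inhibitor gene AT1G17860 (0.17, or 0.10 without that array) differed by little.

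Among genes of iron homeostasis the picture was divided. Plants short of iron switch on a set of bHLH transcription factors, among them BHLH101 and PYE, and small peptides that signal iron shortage, together with metal transporters. Of 11 tested genes in this list, 7 were higher and 4 lower in mARF10, with a median of 0.11. An unadjusted p under 0.05 was found for 5 of them in the upward direction and 1 in the downward direction, beside 4.98% and 5.52% of all named genes. BHLH101, counted among the 5, averaged 6.38 in mARF10 seeds, 5.32 in ARF10 seeds and 5.59 in Col-0 seeds. Only its mARF10 mean lay above the filter on low signal, so it entered the list through the genotype where it was high. The counts for this list therefore describe it and test nothing. AT1G47400, which encodes such an iron-shortage peptide, measured 11.43, 11.25 and 11.54 in mARF10 seeds and 10.76, 9.03 and 8.84 in Col-0 seeds. Every mARF10 array was above every Col-0 array, with Col-0 replicate 1 nearest to them. The difference was 1.86 (SE 0.45), a fold of 3.63, and did not pass (adjusted p = 0.321, 0.0418 with array weights). In ARF10 seeds this gene lay at 7.03 to 7.91, under all arrays of both other genotypes.

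AT3G58060, a transporter of the metal tolerance protein family, was at 9.60, 9.71 and 9.52 in mARF10 seeds, against 8.60, 9.02 and 8.84 in Col-0 seeds. Its difference of 0.79 (SE 0.11, adjusted p = 0.156) was 0.89 and passed without Col-0 replicate 2 (adjusted p = 0.0239). BHLH101 was at 6.62, 6.09 and 6.43 against 5.74, 5.69 and 5.35 in Col-0 seeds, a difference of 0.79 (SE 0.15). Its Col-0 values straddled the filter, so that size is uncertain. PYE, at 8.84, 8.67 and 8.97 in mARF10 seeds and 8.60, 8.56 and 8.03 in Col-0 seeds, differed by 0.43 (SE 0.16, adjusted p = 0.418). AT5G05250, at 10.80, 10.54 and 10.82 against 10.29, 10.54 and 9.82 in Col-0 seeds, differed by 0.50 (SE 0.17), and its lowest mARF10 value almost met a Col-0 value. The 1 gene lower at an unadjusted p under 0.05 was AT3G12900, which encodes a hydroxylase that makes an iron-mobilising coumarin, at -0.18. Transcripts of the zinc transporter ZIP9 (0.09), AT1G73120 (0.11, and 0.05 without Col-0 replicate 2), AT3G07720 (-0.02), CYP71B5 (-0.10, and -0.04 without it) and AT5G38820 (-0.16) differed by little. The median was 0.19 without Col-0 replicate 1 and 0.07 without mARF10 replicate 2.

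**Figure D3:**
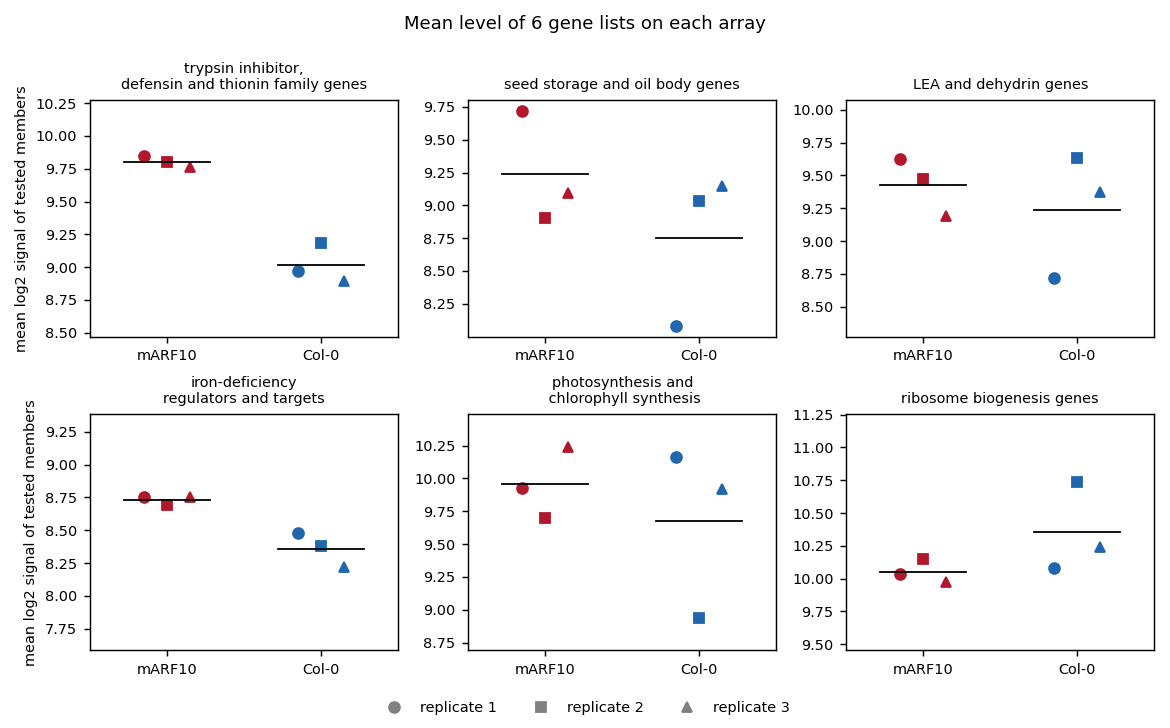
Mean log2 signal over the tested members of 6 gene lists (y axes, each spanning the same range) on each of the mARF10 arrays (red) and Col-0 arrays (blue); symbols give the replicate and bars the mean of 3 arrays. The trypsin inhibitor list lies at 9.76 to 9.85 on the mARF10 arrays and 8.89 to 9.19 on the Col-0 arrays, while the LEA and photosynthesis lists overlap between the genotypes and Col-0 replicate 1 or 2 sits lowest in them.

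Of 8 tested genes for storage proteins and oil body proteins, 6 were higher and 2 lower in mARF10, with a median of 0.64. Of these 8, 3 had an unadjusted p under 0.05, where 4.98% of named genes had one with higher and 5.52% with lower signal. OLEO3, an oleosin that coats oil bodies, had the smallest p of them. It measured 10.58, 10.11 and 10.51 in mARF10 seeds and 9.71, 9.51 and 9.59 in Col-0 seeds, without overlap, and its difference was 0.80 (SE 0.12, adjusted p = 0.185, 0.0123 with array weights). AT3G01570, another oleosin gene, was at 11.13, 10.50 and 10.56 against 9.36, 10.31 and 10.37 in Col-0 seeds, with the groups apart by little and a difference of 0.72. AT4G36700, a cupin-family gene, differed by 0.85 with overlapping arrays. The 2 lower genes were AT1G07750 (-0.05) and AT3G21380 (-0.08, or 0.02 without Col-0 replicate 2).

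Other storage genes varied widely among the arrays of a genotype. PAP85, of the vicilin family, lay at 11.43, 9.65 and 10.55 in mARF10 seeds and 8.14, 10.23 and 10.76 in Col-0 seeds. Its difference was 0.83 with an SE of 0.67, and the groups overlapped. AT2G28490, a cupin gene, differed by 0.55 (SE 0.53) and the oleosin gene AT2G25890 by 0.27 (SE 0.38), or 0.51 when Col-0 replicate 2 was left out. Much of this list's median rested on Col-0 replicate 1, on which the mean over the list was 8.08, while the mARF10 arrays had 8.90 to 9.72 and Col-0 replicates 2 and 3 had 9.03 and 9.15. The list's median was 0.0013 when Col-0 replicate 1 was left out, 0.72 for replicate 2 and 0.29 for mARF10 replicate 1.

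Late embryogenesis abundant (LEA) and dehydrin genes encode hydrophilic proteins that protect the drying seed. Of 49 in the list, 31 were tested, 23 of them higher and 8 lower in mARF10, with a median difference of 0.15. An unadjusted p under 0.05 was found for 6, all higher in mARF10, beside 4.98% of named genes in that direction. AT3G02480 was the most separated of them, at 13.28, 13.38 and 13.05 in mARF10 seeds and 12.62, 12.80 and 12.35 in Col-0 seeds, a difference of 0.65 (SE 0.13, adjusted p = 0.272). DI21, a drought-induced LEA gene, differed by 0.32 (SE 0.09) and AT2G03850 by 0.96 (SE 0.29), both without overlap. AT2G03850 measured 8.43, 8.68 and 8.41 in mARF10 seeds and 8.23, 6.90 and 7.50 in Col-0 seeds, where replicate 1 lay just under the mARF10 arrays.

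Other LEA genes varied widely among the Col-0 arrays. M17 measured 10.01, 9.87 and 9.08 in mARF10 seeds and 7.77, 9.93 and 9.82 in Col-0 seeds, and M10 measured 9.70, 9.29 and 8.72 against 7.25, 9.21 and 9.60 in Col-0 seeds. In both, Col-0 replicate 1 was low and the other Col-0 arrays lay among the mARF10 arrays. The difference of M17 was 0.48, and 0.86 without Col-0 replicate 2. AT5G44310 was at 9.12, 9.42 and 8.65 against 7.60, 11.11 and 9.09 in Col-0 seeds, with Col-0 replicate 2 above all others, and its difference was -0.20 with that array and 0.72 without it. Some lower members stayed lower without that array, while 26 of the 31 were then higher. LTI30, a dehydrin gene, was the lowest member at -0.28, and at -0.46 without it. AT2G42560 was at -0.13 and -0.15, and AT5G27980 at -0.09 and -0.11. The list's median turned with the Col-0 array left out: it was -0.17 without replicate 1, 0.40 without replicate 2 and 0.20 without replicate 3. It was 0.05, 0.14 and 0.27 without mARF10 replicates 1, 2 and 3. In bulk seeds, fewer cells of a type and less RNA per cell cannot be told apart.

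Seed maturation regulators offered few named genes. EEL, a bZIP transcription factor that acts on LEA gene promoters late in seed development, was at 7.37, 6.83 and 7.11 in mARF10 seeds, against 6.65, 6.06 and 6.48 in Col-0 seeds. The groups did not overlap, and the difference was 0.71 (SE 0.17, adjusted p = 0.321) with all arrays and 0.54 without Col-0 replicate 2. Over 14 tested bZIP genes the median was 0.11, with 9 higher and 5 lower in mARF10, but without Col-0 replicate 2 the median was -0.07 and 6 were higher. Another of them, bZIP44, differed by 0.24. SDP1, the lipase that starts the breakdown of storage oil, was lower at 9.92, 9.86 and 9.98 in mARF10 seeds and 10.05, 10.23 and 10.19 in Col-0 seeds. All mARF10 arrays were under all Col-0 arrays, by -0.24 in the means (SE 0.08, adjusted p = 0.418). SDP1 was the 1 lower gene of 4 tested for the breakdown of storage oil and other reserves, whose median was 0.05. AIM1 differed by 0.11, ICL by 0.05 and SDP1-LIKE by 0.05.

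Of 7 tested glutathione transferase genes, whose products attach glutathione to reactive compounds, 5 were higher in mARF10 and 2 lower. The median was 0.40, and 0.32 without Col-0 replicate 2. It was 0.13 when genes under the filter on low signal were included. There were 4 higher and 1 lower at an unadjusted p under 0.05 (3 and 1 without that array), beside 4.98% and 5.52% of named genes. GSTU20 was at 10.24, 10.18 and 10.20 in mARF10 seeds and 9.86, 8.99 and 9.47 in Col-0 seeds. GSTU26 was at 9.86, 9.87 and 10.03 against 9.62, 8.82 and 9.21 in Col-0 seeds. In both the mARF10 arrays were close together and above all Col-0 arrays, of which replicate 2 was lowest. Their differences were 0.77 (SE 0.20) and 0.70 (SE 0.18), with adjusted p of 0.342 and 0.347. GSTU27 (0.43) and GSTU16 (0.40) lay the same way, and GSTU22 differed by -0.21.

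In 2 other enzyme families that modify small molecules, separated members were about as frequent as among all named genes. Arrays did not overlap for 2 higher and 1 lower of 33 UDP-glycosyltransferases and for 1 higher of 11 cytochrome P450 genes. The shares over named genes were 5.59% higher and 6.85% lower. Among 33 tested UDP-glycosyltransferases, which attach sugars to hormones and secondary metabolites, 18 were higher and 15 lower in mARF10, with a median of 0.03. Without Col-0 replicate 2 that median was -0.0046 and 16 were higher. UGT85A2 differed by 0.23 and UGT76E2 by -0.50, each without overlap, and UGT76E2 by -0.31 when that array was dropped. Of 11 tested cytochrome P450 genes, 8 were higher and 3 lower, with a median of 0.02 (0.05 and 7 higher without it), and CYP71B6 differed by 0.30.

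On the lower side the differences were smaller. QQS, a small protein found in Arabidopsis that affects starch content, showed the largest, at 5.70, 5.83 and 5.79 in mARF10 seeds and 6.95, 7.06 and 6.43 in Col-0 seeds. The groups did not overlap, and the difference was -1.04 (SE 0.15, adjusted p = 0.156, 0.0335 with array weights). The mARF10 values lay at the filter of 5.72, so this size is uncertain. ARF10 seeds were at 5.68, 5.86 and 5.74, next to the mARF10 seeds.

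AT4G20320, which encodes a CTP synthase of nucleotide synthesis, was at 6.48, 6.51 and 6.51 in mARF10 seeds, against 6.98, 7.05 and 6.98 in Col-0 seeds. Its replicates were tight in both groups, and the difference was -0.51 (SE 0.07, adjusted p = 0.156, 0.0295 with array weights). AT3G23940, a dihydroxyacid dehydratase of branched-chain amino acid synthesis, was at 10.93 to 11.07 in mARF10 seeds and 11.36 to 11.52 in Col-0 seeds. Its difference was -0.45 (SE 0.07, adjusted p = 0.215, 0.0303 with array weights). GI (GIGANTEA), which sets circadian timing, measured 7.004, 7.003 and 6.89 in mARF10 seeds and 7.36, 7.35 and 7.51 in Col-0 seeds. All mARF10 arrays were under all Col-0 arrays, by -0.44 in the means (SE 0.07, adjusted p = 0.215, 0.0204 with array weights). GI was the 1 tested and named gene of the clock list.

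Sulfate assimilation reduces sulfate to sulfide for cysteine. Of 4 tested genes, 3 were lower in mARF10, with a median of -0.34, or -0.24 without Col-0 replicate 2. SIR, the sulfite reductase, was at 9.76, 9.97 and 9.73 in mARF10 seeds, against 10.28, 10.31 and 10.54 in Col-0 seeds. The groups did not overlap, and its difference was -0.56 (SE 0.10, adjusted p = 0.246, 0.0295 with array weights). BGLU28, a beta-glucosidase gene known to respond to sulfur shortage, differed by -0.49 with 5.44, 5.51 and 5.56 in mARF10 seeds and 5.56, 6.29 and 6.13 in Col-0 seeds, near the filter. APS3, an ATP sulfurylase, differed by -0.18. SAPX, the stromal ascorbate peroxidase that removes hydrogen peroxide, was also lower, at 9.88, 10.19 and 9.86 against 10.47, 10.34 and 10.68 in Col-0 seeds. Its difference was -0.52 (SE 0.11, adjusted p = 0.282, 0.0295 with array weights).

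Further genes lower in mARF10 were named for their p or size. AT1G71870, of the MATE family of efflux carriers, differed by -0.53 and AT1G80280, of the alpha/beta hydrolase family, by -0.46. With array weights both passed (adjusted p = 0.0335 and 0.0311). AT1G80280 also passed without Col-0 replicate 2 (-0.59, adjusted p = 0.0482). AT4G31210, a DNA topoisomerase, differed by -0.33, AT5G56730, a peptidase, by -0.35 and AT2G26450, of the pectin methylesterase family, by -0.40. With array weights these 3 passed too (adjusted p = 0.0447, 0.0447 and 0.0418). AT4G29030 was at -0.60 (-0.77 without Col-0 replicate 2), AT1G30240 at -0.49 and AT1G56230 at -0.45. With array weights AT4G29030 (adjusted p = 0.0486) and AT1G30240 (0.0326) passed, and AT1G56230 (0.0645) did not. For AT1G21160, an initiation factor of the eIF5B family, AT1G42470, AT3G52030 and the DEAD-box helicase AT4G16630, Col-0 replicate 2 was the highest of all arrays. Their differences were -0.62, -0.53, -0.52 and -0.64 with all arrays and -0.29, -0.28, -0.24 and -0.32 without it.

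**Figure D4:**
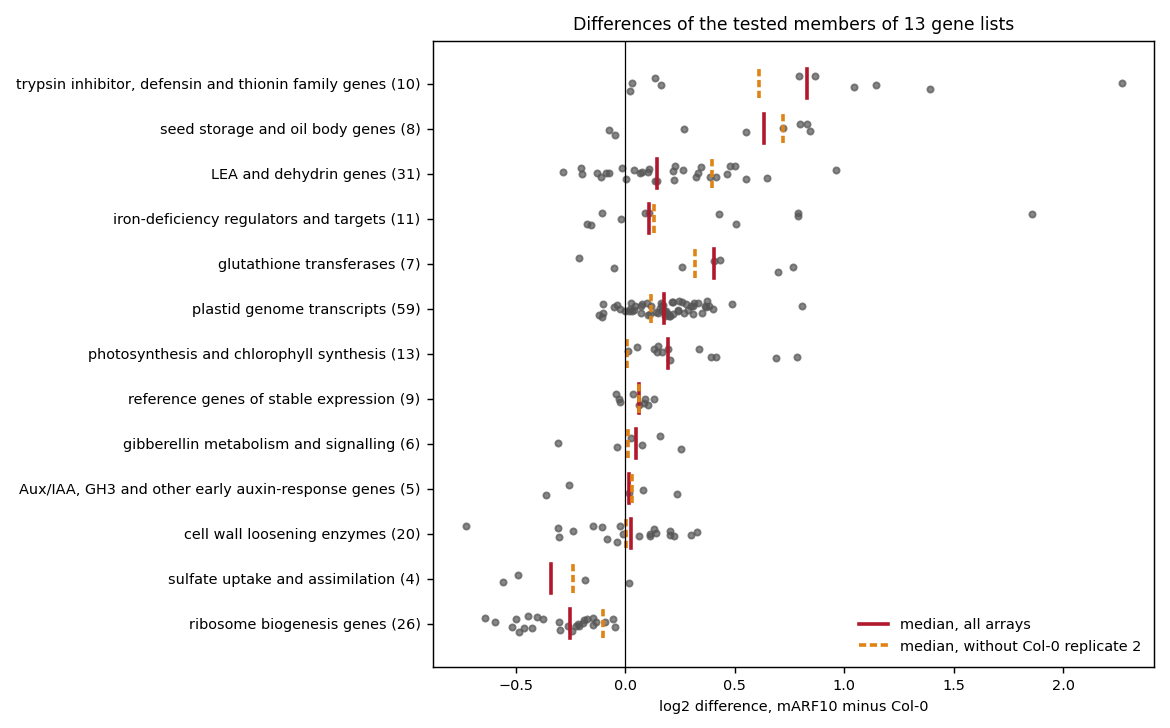
Each grey point is the log2 difference, mARF10 minus Col-0 (x axis), of 1 tested member of a list named on the y axis, with the number of members in parentheses. Solid red bars mark the median with all arrays and dashed orange bars the median without Col-0 replicate 2. The trypsin inhibitor median is 0.83 and 0.61, the photosynthesis median 0.20 and 0.0067, and the ribosome biogenesis median -0.25 and -0.10.

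The upward direction of photosynthesis genes depended on Col-0 replicate 2. All 13 tested nuclear genes for photosynthesis and chlorophyll synthesis had positive differences, with a median of 0.20. Without Col-0 replicate 2, 7 of the 13 were positive and the median was 0.0067. It was 0.09 when mARF10 replicate 3 was dropped, 0.44 for Col-0 replicate 1 and 0.32 for Col-0 replicate 3. Replicate 2 also had the lowest mean over the list in mARF10 (9.70, against 9.93 and 10.24) and in ARF10 (9.97, against 10.32 and 10.20). Leaving out Col-0 replicate 2 kept mARF10 replicate 2 in the comparison. Whether the replicate 2 arrays share a cause was not tested. PRK, a kinase of the Calvin cycle, was at 9.01, 8.25 and 9.33 in mARF10 seeds and 9.01, 6.77 and 8.46 in Col-0 seeds. Its difference was 0.78 with all arrays and 0.13 without Col-0 replicate 2, which was the lowest of the 6. SBPASE, another enzyme of that cycle, differed by 0.69 and by 0.21 without it. PORB, which makes chlorophyllide in light, differed by 0.34 and by -0.29 without it. LHCB4.3, an antenna protein of photosystem II, was the 1 member of 13 with an unadjusted p under 0.05, beside 4.98% of named genes in that direction. It was at 8.85, 8.74 and 8.90 in mARF10 seeds and 8.70, 8.54 and 8.64 in Col-0 seeds, a difference of 0.21.

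Transcripts of the plastid genome itself, which encodes core photosynthetic subunits and parts of the plastid ribosome, depended less on that array. Of 59 tested, 51 were higher and 8 lower in mARF10, with a median of 0.18, and of 0.12 without Col-0 replicate 2 or mARF10 replicate 3. An unadjusted p under 0.05 was found for 7, all higher in mARF10, while 4.98% of named genes had one in that direction. This list was drawn up after values had been seen. petL, a small subunit of the cytochrome b6f complex, was at 7.18, 7.30 and 7.30 in mARF10 seeds, against 6.60, 6.16 and 6.59 in Col-0 seeds, without overlap (difference 0.81, SE 0.15, adjusted p = 0.246). psaJ, a subunit of photosystem I, was at 10.55, 10.06 and 10.37 against 9.87, 9.83 and 9.82 in Col-0 seeds, also without overlap (difference 0.49, SE 0.11). The ribosomal protein gene rps16 differed by 0.37 and ccsA, needed for cytochrome assembly, by 0.31. RNA was amplified with a kit that starts from poly(A) tails, which plastid transcripts mostly lack, and the part of that step in these values was not tested.

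**Figure D5:**
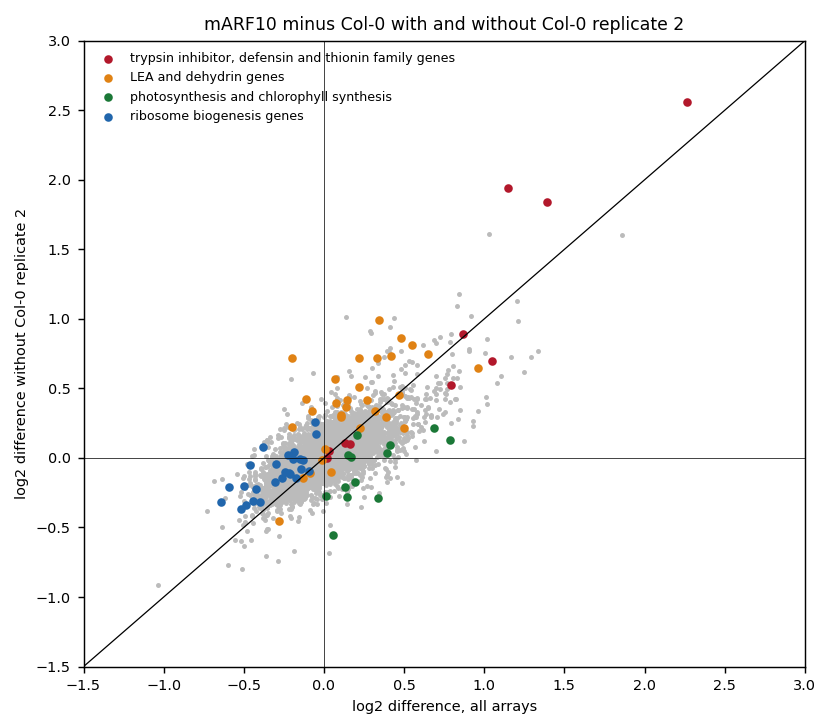
Log2 difference, mARF10 minus Col-0, of each tested named gene with all arrays (x axis) and without Col-0 replicate 2 (y axis); the diagonal marks equal values. Trypsin inhibitor, defensin and thionin genes (red) stay positive or near 0, photosynthesis genes (green) lie under the diagonal with a median of 0.0067 on the y axis, and LEA genes (orange) lie mostly above it with a median of 0.40.

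The few auxin-response genes that were tested differed little as a group. Of 47 genes in the list of Aux/IAA, GH3 and other early auxin-response genes, 12 were named on the array and 5 tested. Their median was 0.02, with 3 higher and 2 lower in mARF10. WES1, a GH3 enzyme that conjugates auxin to amino acids, was the 1 of 5 with an unadjusted p under 0.05. Among named genes 5.52% were lower at that p, and 6.85% had non-overlapping arrays on the lower side. It lay at 7.79, 7.75 and 7.82 in mARF10 seeds and 7.998, 8.32 and 8.13 in Col-0 seeds, without overlap, a difference of -0.36 (SE 0.09, adjusted p = 0.321). GH3.1 differed by -0.26 and GH3.17 by 0.24, both with overlapping arrays, and GH3.17 by 0.04 without Col-0 replicate 2. No gene of the ARF family or of auxin transport was named among the tested probe sets.

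Gibberellin, which promotes germination, acts through the GID1 receptors and the F-box proteins that remove DELLA repressors. Of 6 tested genes of its metabolism and signalling, 4 were higher and 2 lower in mARF10, with a median of 0.05 (0.01 and 3 higher without Col-0 replicate 2). The receptor gene GID1C was at 6.58, 6.77 and 6.64 in mARF10 seeds and 6.88, 7.02 and 7.01 in Col-0 seeds, a difference of -0.31 (SE 0.09, adjusted p = 0.371). SLY2, an F-box gene, was at 6.34, 6.42 and 6.43 against 6.29, 6.06 and 6.09 in Col-0 seeds, a difference of 0.25 (SE 0.08). Each of these 2 had non-overlapping arrays, in opposite directions, beside 5.59% of named genes on the higher and 6.85% on the lower side. No other tested member had non-overlapping arrays or an unadjusted p under 0.05.

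Cell wall loosening enzymes let the embryo's cells expand. Of 20 tested, 10 were higher and 10 lower in mARF10, with a median of 0.03, and 2 in each direction had an unadjusted p under 0.05, beside 4.98% of named genes higher and 5.52% lower. Without Col-0 replicate 2 it was 1 in each direction and the median was 0.0041. EXPA20 differed by 0.30 and EXPA4 by 0.33 (0.15 when that array was dropped), while EXPB1 differed by -0.31 and EXPA15 by -0.73. EXPA15 measured 9.34, 9.72 and 8.99 in mARF10 seeds and 9.43, 10.77 and 10.03 in Col-0 seeds, with overlap, and its difference was -0.38 without Col-0 replicate 2. Among heat shock genes, AT3G09440, an HSP70, differed by -0.36 and by -0.52 without that array.

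Few tissue markers were named. The 3 tested genes of the shoot meristem and leaf polarity differed by -0.15 (PHV, -0.01 without Col-0 replicate 2) to 0.01, and 0 of the 3 had an unadjusted p under 0.05. JKD, a root transcription factor gene, was at 6.02, 6.06 and 6.15 in mARF10 seeds and 6.37, 6.32 and 6.20 in Col-0 seeds, a difference of -0.22 (SE 0.07, adjusted p = 0.414) without overlap. Across 9 genes used as stable references, the differences ran from -0.04 to 0.13 with a median of 0.06, and none had an unadjusted p under 0.05.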

How the data were processed

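Total RNA (5 µg per sample) from germinating seeds was amplified, labelled with biotin and hybridised to 1-colour arrays, per the labels' protocols. Replicates are independent and biological, per the labels. The deposited values are log2 signals, made by the authors from the scans; the base was inferred from their range of 3.70 to 14.78, and the normalization is not given in the sources used here. Of 22810 probe sets, 64 were controls and not used. A filter at the 30th percentile (5.72) of the 9-array mean kept 15922 of the remaining 22746 and dropped 6824. The platform annotation named 1 gene for 13513 probe sets, several for 503 and none for 8730; 13436 matched the RefSeq gene table of assembly TAIR10.1. For a gene with several probe sets the brightest was used, which gave 8870 named genes tested.

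limma 3.58.1 in R 4.3.3 fitted 1 mean per genotype over the 9 arrays (6 residual and 3.11 prior degrees of freedom), with p-values adjusted over all 15922 by the Benjamini-Hochberg method and called at 0.05. Errors are limma standard errors (SE). The code was tested on simulated data. Genes are named as the 10 with the smallest p and the 10 with the largest difference in each direction among those with non-overlapping arrays, up to 10 per direction called with array weights, and up to 4 members of each list or name-defined family (more for iron, storage, LEA and clock genes). Members and lists were chosen with earlier results of these data known. Same-numbered mARF10 and Col-0 arrays deviated from their group means with correlations of -0.17, 0.48 and 0.24. The numbers were not taken as pairs in the main fit, and whether same-numbered arrays share a batch was not tested. With a replicate block, 2344 probe sets (9 arrays) and 1360 (6 arrays) had an unadjusted p under 0.05. Without the block these counts were 1697 and 1047, and 0 passed after adjustment either way. A name pattern for ERF and AP2 factors matched unrelated genes and was not used, and a planned motif search in promoters was not run, as no promoter sequence was used here.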

Additional observations from a re-analysis of the deposited data

How the results depend on the processing

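The count of called probe sets was 0 with no filter, a stricter filter, quantile normalization, median centring, a floor, a trended fit, the 6 arrays alone with or without moderation, and a replicate block (0 with 9 arrays and 0 with 6). It was 82 with array weights from limma's gene-by-gene method. The default method for those weights, tried after the data were seen, did not converge, gave Col-0 replicate 3 a weight of 18.6 and 5229 calls, and was not used. Leaving out 1 array gave 0 to 14 calls. The arrays whose absence gave any were Col-0 replicate 1 (14), Col-0 replicate 2 (11), Col-0 replicate 3 (1) and mARF10 replicate 2 (5). The count at an unadjusted p under 0.05 was 1697 with all arrays, 1047 and 879 with the 6 arrays alone with and without moderation, 3096 with array weights, 2344 and 1360 with the replicate block, and 910 to 3614 when 1 array was left out. The lowest of these left out mARF10 replicate 3 and the highest Col-0 replicate 1. The share of non-overlapping probe sets was 12.38% to 33.93% when 1 array was left out, which rises with fewer arrays.
Without a filter the median was 0.13 for trypsin inhibitor, defensin and thionin genes and 0.13 for glutathione transferases, and with the stricter filter it was 0.27 for iron genes and -0.14 for auxin-response genes. With 1 array left out, medians ran from 0.61 to 0.83 for the trypsin inhibitor list, 0.0013 to 0.79 for storage, -0.17 to 0.40 for LEA, 0.071 to 0.19 for iron, 0.32 to 0.45 for glutathione transferases, -0.43 to -0.24 for sulfate, 0.0067 to 0.44 for photosynthesis, 0.12 to 0.22 for plastid transcripts, -0.02 to 0.03 for cell wall enzymes, 0.0014 to 0.10 for gibberellin, -0.0014 to 0.03 for auxin response, 0.05 to 0.09 for reference genes -0.38 to -0.10 for ribosome biogenesis, -0.066 to 0.14 for bZIP genes, -0.036 to 0.12 for UDP-glycosyltransferases and 0.0056 to 0.06 for cytochrome P450 genes. The last 3 families were added after the data were seen. The median was -0.027 for UDP-glycosyltransferases with array weights and 0.15 for P450 genes with the stricter filter. Of 2099 values of named genes under the alternatives, 2047 kept their direction and side of the threshold, 44 passed it and 8 changed sign. With 1 array left out, the genes that changed sign ran from -0.041 (Col-0 replicate 1 left out) to 0.998 for AT2G28490, from -0.16 to 0.51 for AT2G25890, from -0.17 to 1.01 for M10 and from -0.22 to 0.86 for M17, in each case lowest when Col-0 replicate 1 was left out. The range was -1.04 to 0.72 for AT5G44310 and -0.29 to 0.74 for PORB. M10 was at -0.048 with array weights. The cause was not tested. Whether a probe set was detected was not assessed, so genes near the filter have uncertain sizes.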

Other observations

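Genes of ribosome biogenesis, which make and process ribosomal RNA, were lower in mARF10 in 26 of 26 tested members of a list written after values of these data had been seen, some of its members among them. The list is therefore a description and has no test. Its median difference was -0.25, and 7 members had an unadjusted p under 0.05, all lower, beside 5.52% of named genes in that direction. The mean log2 signal over the list was 10.04, 10.15 and 9.97 on the mARF10 arrays, 10.20, 10.26 and 10.21 on the ARF10 arrays and 10.08, 10.74 and 10.24 on the Col-0 arrays. Col-0 replicate 2 was the highest array, and without it the median was -0.10 and 5 of 26 were higher in mARF10, while the median was -0.38 when Col-0 replicate 1 was left out. NRPA2, a core subunit of RNA polymerase I, was at 9.45, 9.34 and 9.27 in mARF10 seeds and 9.61, 10.18 and 9.83 in Col-0 seeds, a difference of -0.52 (SE 0.13, adjusted p = 0.332). YAO, a nucleolar WD-repeat protein of pre-ribosomal RNA processing, was at 9.74, 9.80 and 9.71 against 9.995, 10.52 and 10.18 in Col-0 seeds, a difference of -0.48 (SE 0.12, adjusted p = 0.324). NRPA1 differed by -0.43, AT3G06530 by -0.40 and AT4G30990 by -0.44, and without Col-0 replicate 2 by -0.23, -0.32 and -0.31.

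Among probe sets with no gene name here, 253904_at and 253894_at had the smallest p on the higher side. The first measured 12.64, 10.94 and 12.08 in mARF10 seeds, 7.56, 7.49 and 7.39 in ARF10 seeds and 8.58, 9.40 and 8.03 in Col-0 seeds, a difference from Col-0 of 3.22 (SE 0.43, adjusted p = 0.156). The other, 253894_at, differed by 2.47 (SE 0.43), with 11.96, 11.13 and 11.41 in mARF10 seeds and 9.34, 9.81 and 7.95 in Col-0 seeds. In both, all mARF10 arrays were above all Col-0 arrays. On the lower side, 262263_at had the smallest p of the whole comparison. It was at 7.95, 7.95 and 7.78 in mARF10 seeds and 8.47, 8.65 and 8.70 in Col-0 seeds, a difference of -0.71 (SE 0.08, adjusted p = 0.107).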
